A study of Mus musculus with 18 samples.

Results

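The genes described here encode the subunits of voltage-gated calcium and sodium channels and the TRP cation channels, measured in isolated mouse pancreatic islets. They are the genes with a transcript cluster of their own whose symbol begins with Cacna, Cacnb, Cacng, Scn followed by a number, or Trpc, Trpm or Trpv followed by a number, which gave 58 of the 22180 genes of the arrays. Another 5 genes of the same names could not be assigned to a single cluster and are not analysed here. Of the 58, 42 had a mean log2 signal above 2.99, the 30th percentile of all genes, and were tested, and the other 16 were too dim. The islets came from diabetes-prone C57BL/KsJ db/db mice, which lack the long form of the leptin receptor, from diabetes-resistant C57BL/6J ob/ob mice, which lack leptin, and from age-matched lean control mice of each strain, all at 6 and at 16 weeks of age. Each of the 8 groups had 2 arrays in the larger of 2 tables. The smaller table held 1 further db/db and 1 further lean KsJ array of 16 weeks on another array design, called replicate 3 below. Islets were handpicked, animals had free access to food, and both obesity mutations act in the whole body from birth. Below, lean KsJ and lean 6J are the control mice of the C57BL/KsJ and C57BL/6J strains.

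Islet beta cells secrete insulin when closure of their potassium channels depolarises the membrane and calcium enters through voltage-gated channels. A calcium channel consists of a pore-forming alpha1 subunit (Cacna1 genes), an alpha2delta subunit (Cacna2d) that raises its density at the membrane, and a cytoplasmic beta subunit (Cacnb) that helps the pore reach the membrane. The gamma subunit genes (Cacng) are named after a skeletal muscle calcium channel subunit, but several of their products serve AMPA-type glutamate receptors. Sodium channels consist of a pore-forming alpha subunit and auxiliary beta subunits, and they carry the rapid upstroke of action potentials in neurons and islet cells. TRP channels conduct cations in response to lipids, calcium, ligands, heat or store depletion, and those permeable to sodium can depolarise islet cells. Trpc4ap and Trpc5os match the naming rule but are not channels: the first encodes a protein that binds Trpc4 and the second is a gene on the opposite strand of Trpc5.

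Signals were log2 values, with array medians between 3.51 and 3.83 in the larger table. The beta-cell marker list, 12 genes with insulin among them, averaged 10.81 to 11.63 on the 16 arrays, and in bulk islets fewer cells of a type and less RNA per cell cannot be told apart. Lean KsJ 16-week replicate 2 stood apart, with the 11 acinar cell genes at a mean of 12.74 against 9.76 on replicate 1. Lean 6J 6-week replicate 2 also stood apart, with the 12 enterocyte genes at a mean of 10.71 against 4.53 on replicate 1. The db/db 16-week arrays were raised in the same list, at 6.50 on replicate 1 and 9.36 on replicate 2. Below, the arrays said to stand apart are the lean ones just named. The Y-linked gene Uty was at 7.25 to 7.86 on replicate 1 of the lean KsJ groups of both ages and of lean 6J at 6 weeks and on both ob/ob 6-week arrays, and at 3.60 or lower on the other 11 arrays. All 4 arrays of the ob/ob comparison at 16 weeks were thus low for Uty, and the other comparisons of obese and lean islets were not matched for it. For the channel genes, calls that rest on an array that stands apart are given with and without it. So are their differences printed with an error that move by over 1.5 times without such an array. Calls of marker and partner genes are given only with all arrays.

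In 16-week db/db islets against lean KsJ islets, 4 of the 42 channel genes passed the test, all of them higher in db/db islets: the sodium channel genes Scn3b and Scn3a, the TRP channel gene Trpc4 and the gamma subunit gene Cacng3. Calls were made at an adjusted p under 0.05 (limma over all arrays of the larger table, Benjamini-Hochberg adjustment over 15526 genes). The background was 5.8% of all genes called, 5.32% called higher, so the 4 calls are not many. The median log2 difference of the 42 genes was 0.22, against 0.18 over all genes, and 26 of the 42 were above 0, against 65.7% of all genes. An unadjusted p below 0.05 was found for 11 of them, against 24.5% of all genes. Both db/db arrays lay above both lean arrays for 11 of the 42 genes, where 32.8% of all genes did, and below them for 4, where 10.4% of all genes did.

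Of the sodium channel genes, Scn3b, an auxiliary beta subunit that changes the gating of the pore, had log2 signals of 6.96 and 7.02 in 16-week db/db islets, against 5.62 and 5.01 in lean KsJ islets. Both db/db arrays were the highest of the 16 arrays, and the lean arrays of that age the lowest. The difference was 1.68 ± 0.23 on the log2 scale (SE of the fit, n = 2 arrays per group, as for all values below; adjusted p = 0.0111). Scn3a, one of the pore-forming alpha subunits known in mouse islets, was at 8.66 and 8.54 in db/db islets, against 7.55 and 6.69 in lean islets. It rose by 1.48 ± 0.33 (adjusted p = 0.0317), and all db/db arrays lay above all lean arrays.

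The other 3 tested alpha subunit genes were also higher on both 16-week db/db arrays than on both lean arrays, but none passed the test. Scn9a, the other alpha subunit known for carrying sodium current in mouse beta cells, was at 8.30 and 7.97 in db/db islets, against 7.55 and 6.72 in lean islets (difference 1.0 ± 0.28, adjusted p = 0.0612, and 0.59 without lean replicate 2). Scn7a, whose product is known in glia as a sodium sensor, was at 4.52 and 5.42 in db/db islets, against 3.54 and 2.83 in lean islets (1.79 ± 0.50, adjusted p = 0.0613). Scn8a, an alpha subunit of neurons, was at 6.08 on both db/db arrays, against 5.91 and 4.32 in lean islets (0.97 ± 0.38, adjusted p = 0.142). The replicates of lean islets differ more in Scn8a than db/db islets do from lean replicate 1. Scn2b, another beta subunit, was at 2.88 and 3.44 in db/db islets, against 3.47 and 2.60 in lean islets, and the groups overlapped. The 4 alpha subunit genes had a median difference of 1.24, which was 1.05 after median centring and 0.99 after quantile normalization, with all 4 above 0 each time. Without lean KsJ 16-week replicate 2, described below, the median of the 4 was 0.82.

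Of the calcium channel genes, only Cacng3 was called at 16 weeks in db/db islets. Cacng3, a gamma subunit gene whose product is known in the brain as an auxiliary subunit of AMPA receptors, was at 5.07 and 5.10 in db/db islets, against 3.67 and 3.91 in lean islets. The groups were apart, and the gene rose by 1.30 ± 0.31 (adjusted p = 0.0396). The other 5 tested gamma subunit genes had differences between -0.18 and 0.00, with Cacng4 at 5.61 and 5.92 in db/db islets, against 6.09 and 5.44 in lean islets.

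The pore-forming genes did not pass the test in that comparison, and both L-type genes of the beta cell overlapped between the groups. Cacna1c was at 7.16 and 7.09 in db/db islets, against 7.35 and 5.84 in lean islets, and Cacna1d was at 7.48 and 7.88, against 7.81 and 7.03 in lean islets. Cacna1a, the P/Q-type pore, was at 6.87 and 7.13 in db/db islets, against 7.28 and 6.88 in lean islets. Cacna1h, a T-type pore, was at 4.12 and 3.58 in db/db islets, against 4.03 and 4.47 in lean islets. The 8 tested pore genes had differences from -0.41 to 0.53 with 6 above 0, and 4 above 0 after median centring or quantile normalization.

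Among the alpha2delta genes, Cacna2d1, a binding target of gabapentin, was at 9.12 and 8.77 in db/db islets, against 8.61 and 6.77 in lean islets (1.26 ± 0.43, adjusted p = 0.107). Cacna2d2, the other gabapentin target, was at 5.29 and 5.05 in db/db islets, against 4.78 and 4.61 in lean islets (0.47 ± 0.16, adjusted p = 0.109). Both were higher on every db/db array, although lean replicate 1 lay close to db/db replicate 2 for Cacna2d1. Cacna2d4, an alpha2delta gene known from the retina, was at 2.86 and 2.95 in db/db islets, against 3.08 and 3.90 in lean islets. The beta subunit genes Cacnb1 (6.31 and 6.58 in db/db islets, against 6.34 and 5.98 in lean islets) and Cacnb2 (7.34 and 7.09 in db/db islets, against 7.18 and 6.15 in lean islets) overlapped between the groups.

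Of the TRP genes, Trpc4, a receptor-operated cation channel, was called at 16 weeks in db/db islets. It was at 7.05 and 7.10 in db/db islets, against 5.83 and 4.77 in lean islets, and rose by 1.78 ± 0.39 (adjusted p = 0.0294). Trpm5, a calcium-activated channel of taste cells that is also known to support glucose-induced insulin secretion in mice, was at 3.49 and 4.43 in db/db islets, against 5.33 and 4.86 in lean islets. Its difference of -1.13 ± 0.39 was the most negative of the 42 genes and did not pass the test (adjusted p = 0.107). It was -0.67 without db/db 16-week replicate 1.

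Trpm4, the closest relative of Trpm5, overlapped between the groups, at 4.98 and 5.70 in db/db islets, against 4.93 and 6.02 in lean islets. Trpc1, a subunit of receptor-operated channels, was at 7.87 and 7.59 in db/db islets, against 7.69 and 6.30 in lean islets. Trpm2, gated by ADP-ribose, was at 4.51 and 4.95 in db/db islets, against 4.57 and 3.77 in lean islets. Both overlapped between the groups.

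Trpm3, a steroid-activated channel of beta cells, was at 6.25 and 6.17 in db/db islets, against 6.02 and 5.11 in lean islets. Trpm7, a magnesium-permeable channel with a kinase domain, was at 7.31 and 7.17 in db/db islets, against 7.33 and 7.84 in lean islets. The groups were narrowly apart for both, Trpm3 higher and Trpm7 lower in db/db islets, and neither passed the test. Of the Trpv genes, Trpv2 was at 3.50 and 4.08 in db/db islets, against 3.56 and 3.50 in lean islets, and Trpv4, an osmosensitive channel, was at 3.29 and 4.19, against 3.83 and 4.22 in lean islets.

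**Figure D1:**
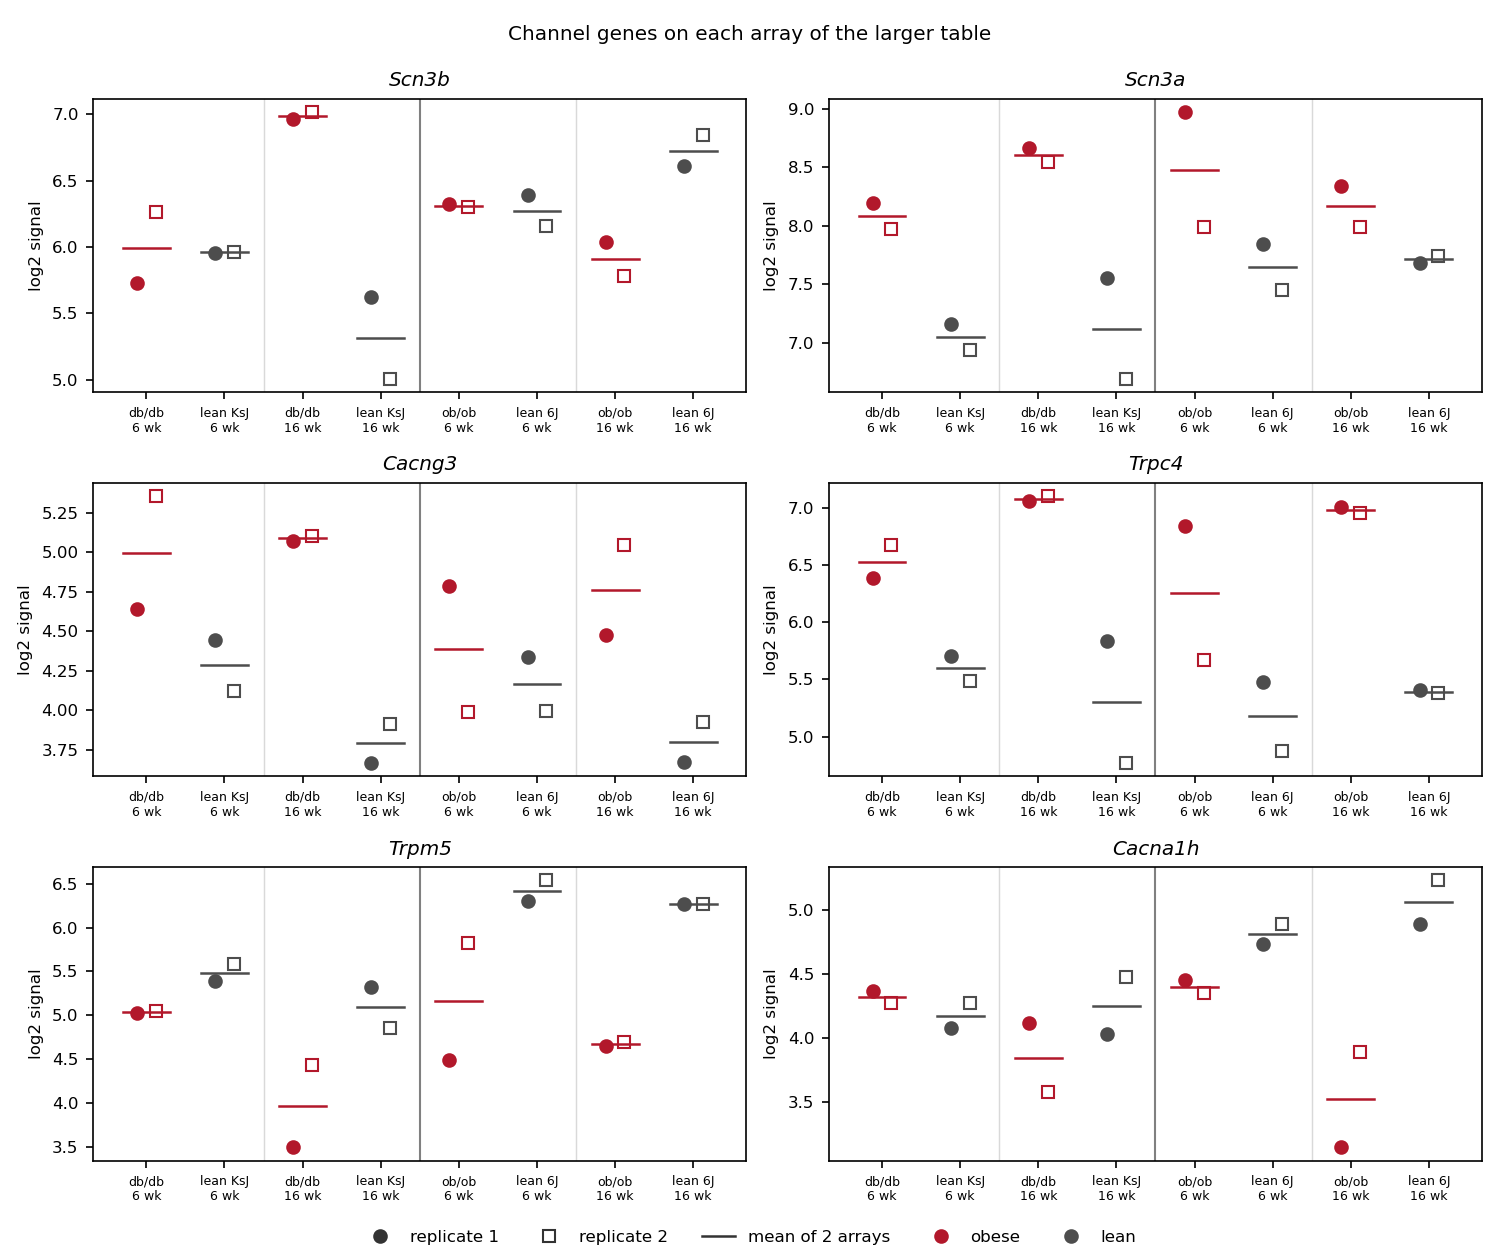
Log2 signal (vertical axes, a separate scale for each gene) of 6 channel genes on the 16 arrays of the larger table, with obese islets left of lean islets at each age. Filled circles are replicate 1, open squares replicate 2 and lines the mean of 2 arrays. In Trpc4 the obese arrays lie above the lean arrays of their strain and age in all 4 comparisons, while Scn3b is highest on the db/db 16-week arrays (6.96 and 7.02) and is lower on the ob/ob than on the lean 6J arrays of 16 weeks.

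The 16-week db/db differences depended on which lean KsJ array they were taken against. Of the 42 channel genes, 19 were lower by over 0.5 on lean replicate 2, the array rich in acinar genes, than on replicate 1, against 27.5% of all genes, and 7 were higher by over 0.5, against 21.5%. Trpv6, a calcium-selective epithelial channel, was at 6.57 on replicate 2 and 3.18 on replicate 1, and the dim gene Scn4b at 4.59 and 1.99. Without replicate 2, Scn3b still passed the test (1.37, adjusted p = 0.0481). Trpc4 (1.25, adjusted p = 0.119), Scn3a (1.05, adjusted p = 0.129) and Cacng3 (1.42, adjusted p = 0.0874) kept their direction and lost the call. The differences of Cacna2d1 and Scn8a shrank to 0.34 and 0.18, and those of Trpm3 and Cacna2d4 were 0.19 and -0.17, against 0.64 and -0.59 with both lean arrays. In all, 10 of the 42 genes changed sign, Cacna1c and Trpv6 among them. Without lean replicate 1, the one with a high Uty signal, 18 of the 42 genes were called, on a background of 30.2% of all genes. Scn3a, Trpc4 and Cacng3 also lost the call without either of the db/db arrays, and Scn3b lost it without db/db replicate 2. Without db/db replicate 1 the differences were 1.70 for Scn3b, 1.42 for Scn3a, 1.80 for Trpc4 and 1.31 for Cacng3. Without db/db replicate 2 they were 1.65, 1.54, 1.75 and 1.28.

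Markers of other cells moved in the same comparison. The acinar list averaged 10.22 and 11.32 in db/db islets, against 9.76 and 12.74 in lean islets, and the enterocyte list 6.50 and 9.36, against 4.40 and 6.16. All 8 macrophage genes (6.90 and 6.60 on average in db/db islets, against 5.79 and 5.23) and 10 of 11 muscle and stellate cell genes (5.99 and 6.41, against 4.97 and 4.95) were higher in db/db islets. Called as higher were 4 of the macrophage genes, with the smallest p for C1qa, Tyrobp and Fcer1g. Of the muscle and stellate cell genes Col3a1, Col1a1 and Rgs5 were called as higher, and of the enterocyte genes Vil1. The background was 5.32% of all genes called higher. The 12 neuron and Schwann cell genes averaged 4.88 and 5.10 in db/db islets, against 4.75 and 4.52 in lean islets, and 6 of the 8 tested were higher in db/db islets. Th, a gene of that list, was called as higher (1.85 ± 0.25, adjusted p = 0.0106). Of the glial genes in that list, Sox10 and S100b were at 3.24 or lower on all 16 arrays, Cdh19 and Gfap reached 3.78 and 3.84, Foxd3 lay between 3.49 and 4.35, and Ngfr reached 5.16. Ngfr was at 3.05 and 4.72 in 16-week db/db islets, against 3.77 and 3.16 in lean islets. All 7 endothelial genes were above 0 (7.59 and 8.01 on average in db/db islets, against 7.37 and 6.66), with Cdh5 and Plvap called. The beta-cell list averaged 10.81 and 10.84 in db/db islets, against 11.36 and 10.86 in lean islets, and Mafa, a transcription factor of mature beta cells, fell by 1.26 ± 0.32 (adjusted p = 0.0473). The alpha-cell list stood at 7.84 and 8.04 in db/db islets, against 7.88 and 8.03 in lean islets. The delta and PP cell list was at 9.08 and 9.14, against 9.33 and 9.13, and the lymphocyte list at 3.71 and 3.86, against 3.41 and 3.64. Krt7 of the duct list rose by 1.12 ± 0.29 (adjusted p = 0.0467), with 2 of 5 duct genes above 0. Tnnt3 of the skeletal muscle list fell by 1.15 ± 0.18 (adjusted p = 0.0138). That list was at 3.02 and 3.09, against 3.15 and 4.12. Of all 15526 genes, 74 were called lower. With the mean levels of the acinar and enterocyte lists as covariates, 7 channel genes were called, and with a term for Xist 8 were, all higher and the 4 above among them in both fits. Of all genes, these fits called 6.81% and 9.18% as higher. The part of the other cells in these differences was not tested.

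**Figure D2:**
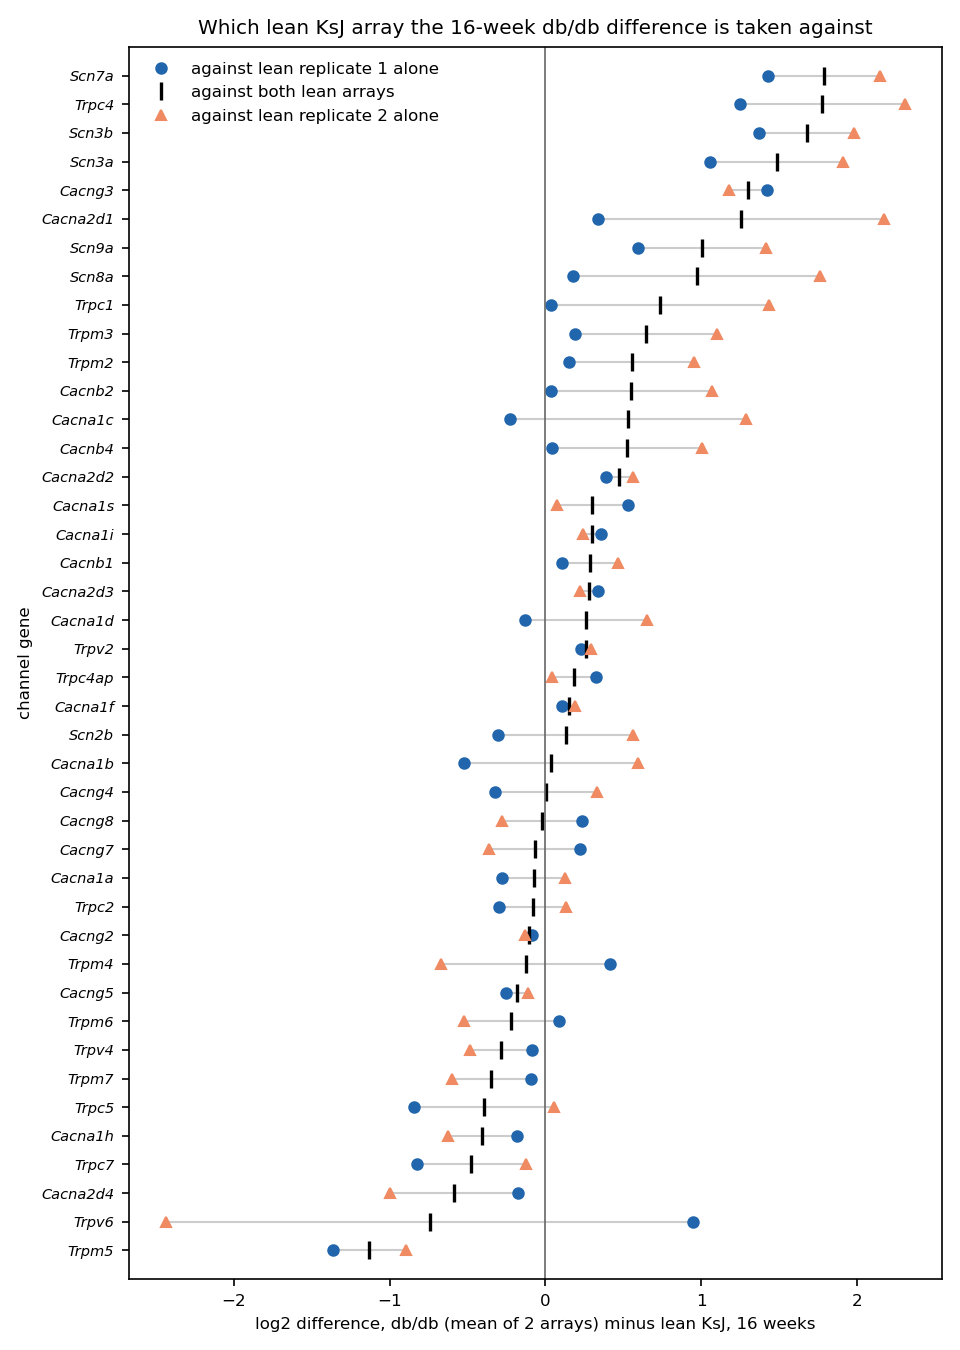
Log2 difference between 16-week db/db islets (mean of 2 arrays) and lean KsJ islets (horizontal axis) for the 42 tested channel genes, against both lean arrays (bars), against lean replicate 1 alone (circles) and against lean replicate 2 alone (triangles). Scn3b, Scn3a, Trpc4 and Cacng3 stay above 1 against either array, whereas Trpv6 moves between 0.95 and -2.44.

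In 6-week db/db islets none of the 42 genes was called, on a background of 0.0258% of all genes. An unadjusted p below 0.05 was found for 5 of them, against 8.52% of all genes, and the median difference was -0.09. Scn3a was at 8.19 and 7.97 in db/db islets, against 7.16 and 6.93 in lean KsJ islets (1.04 ± 0.33, adjusted p = 0.531). Trpc4 was at 6.38 and 6.67 in db/db islets, against 5.70 and 5.49 in lean islets (0.93 ± 0.39). Cacng3 was at 4.64 and 5.35 in db/db islets, against 4.45 and 4.12 in lean islets (0.71 ± 0.31, or 0.35 without db/db replicate 2 and 1.07 without replicate 1). These 3 genes thus had arrays apart in the same direction as at 16 weeks. Scn3b did not, at 5.72 and 6.27 in db/db islets, against 5.96 on both lean arrays.

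Cacna1i, a T-type pore, was at 3.90 and 3.22 in 6-week db/db islets, against 2.59 and 3.03 in lean islets, and its mean of 3.05 over all arrays was just above the filter. Cacna1f, an L-type pore known from the retina, was at 3.88 and 3.43 in db/db islets, against 2.87 and 3.03 in lean islets (0.71 ± 0.24). Trpc7, a lipid-activated channel, was at 7.01 and 6.76 in db/db islets, against 6.15 and 5.86 in lean islets (0.88 ± 0.46). Lower on both db/db arrays were Cacna1d, at 7.83 and 7.01 in db/db islets, against 8.13 and 8.06 in lean islets, and Trpm3, at 5.62 and 5.16, against 6.05 and 5.85 in lean islets. The adjusted p of these 5 genes was 0.537 or higher.

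In 16-week ob/ob islets against lean 6J islets none of the 42 genes was called, on a background of 0.0708% of all genes. The genes nevertheless lay to the lower side: 11 of 42 were above 0, against 47.5% of all genes, and their median difference was -0.28, against -0.03 over all genes. An unadjusted p below 0.05 was found for 15 of the 42, against 16.6% of all genes. Both ob/ob arrays lay below both lean arrays for 23 genes, where 33.3% of all genes did, and above them for 6, where 28.2% of all genes did. Medians were below 0 for the pore, alpha2delta, beta, sodium and Trpc and Trpm groups, also after median centring and quantile normalization.

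The smallest p in that comparison belonged to Cacna1h, the T-type pore, which was at 3.15 and 3.89 in ob/ob islets, against 4.89 and 5.23 in lean 6J islets (-1.54 ± 0.27, adjusted p = 0.0564). Both ob/ob arrays of 16 weeks were lower than those of 6 weeks (4.45 and 4.35), which had high Uty signals where the 16-week arrays did not. Cacna1a was at 7.11 and 6.83 in ob/ob islets, against 7.92 and 7.86 in lean islets (-0.91 ± 0.20, adjusted p = 0.0839). Cacna1c was at 6.74 and 6.69 in ob/ob islets, against 7.56 and 7.67 in lean islets, and Cacna1d at 7.59 and 7.40, against 7.99 and 8.12 in lean islets. All 4 pore genes had both ob/ob arrays below both lean arrays. Cacna1f went the other way, at 3.88 and 4.41 in ob/ob islets, against 3.31 and 3.46 in lean islets (0.76 ± 0.24, adjusted p = 0.168).

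The alpha2delta genes Cacna2d2 (4.76 and 4.78 in ob/ob islets, against 5.47 and 5.59 in lean islets, adjusted p = 0.0792) and Cacna2d1 (8.47 and 8.51 in ob/ob islets, against 8.98 and 9.13 in lean islets) were lower on both ob/ob arrays. Cacnb2 was also lower, at 7.0 and 7.12 in ob/ob islets, against 7.44 and 7.48 in lean islets, whereas Cacnb1 overlapped, at 6.55 and 6.29, against 6.90 and 6.45 in lean islets. Cacng4, a gamma subunit gene, was at 5.63 and 5.95 in ob/ob islets, against 6.71 and 6.88 in lean islets (-1.0 ± 0.25, adjusted p = 0.107). Cacng3 was higher, at 4.47 and 5.05 in ob/ob islets, against 3.67 and 3.93 in lean islets (0.96 ± 0.31, adjusted p = 0.177).

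Among the sodium channel genes, Scn3b was at 6.04 and 5.78 in 16-week ob/ob islets, against 6.61 and 6.84 in lean islets (-0.81 ± 0.23, adjusted p = 0.142). Scn7a was at 3.84 and 3.31 in ob/ob islets, against 5.26 and 5.07 in lean islets (-1.59 ± 0.50), and Scn8a at 5.59 and 5.65, against 6.51 and 6.39 in lean islets. Scn9a overlapped, at 7.73 and 7.47 in ob/ob islets, against 7.48 and 7.86 in lean islets. Scn3a was the only one of the 4 alpha subunit genes above 0, at 8.34 and 7.99 in ob/ob islets, against 7.68 and 7.74 in lean islets (0.45 ± 0.33).

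Among the TRP genes, Trpm5 was at 4.64 and 4.69 in 16-week ob/ob islets, against 6.27 on both lean 6J arrays (-1.60 ± 0.39, adjusted p = 0.0993). Trpc5, a channel related to Trpc4, was at 3.26 and 3.51 in ob/ob islets, against 4.39 and 4.61 in lean islets (-1.12 ± 0.27, adjusted p = 0.103). Trpc4 stood opposite, at 7.01 and 6.95 in ob/ob islets, against 5.41 and 5.38 in lean islets (1.59 ± 0.39, adjusted p = 0.102). Trpc1 was at 7.45 and 7.38 in ob/ob islets, against 7.79 and 7.72 in lean islets, and Trpm7 at 7.19 and 7.15, against 7.51 and 7.79 in lean islets. Trpm2 was lower, at 3.94 and 4.57 in ob/ob islets, against 4.73 and 4.85 in lean islets, and Trpm3 was higher, at 6.72 and 6.83, against 6.21 and 6.23 in lean islets. Trpm4 was at 4.70 and 4.85 in ob/ob islets, against 4.86 and 5.18 in lean islets, a narrow gap. Trpv2 (3.73 and 3.44 in ob/ob islets, against 3.63 and 3.64 in lean islets) and Trpv4 (3.11 and 3.40 in ob/ob islets, against 3.13 and 3.12 in lean islets) overlapped.

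That no gene was called at 16 weeks in ob/ob islets depended on which arrays entered the fit and how they were weighted. When the fit held only ob/ob and lean 6J islets of that age, 12 of the 42 were called, 11 of them lower, on a background of 8.33% of all genes, and with array weights 16 were called, 13 of them lower, on a background of 19.1%. Leaving out either lean KsJ 16-week array called 7, namely Trpc4 as higher and Cacna1a, Cacna1h, Cacna2d2, Cacng4, Scn8a and Trpc5 as lower, on a background of 2% of all genes. Leaving out either ob/ob 6-week array called 5 genes, on a background of 2.11%, and leaving out both arrays that stand apart called 3, Cacna1h, Trpc5 and Scn8a, as lower, on a background of 0.94%. In the same 16-week ob/ob arrays the acinar list averaged 9.71 and 9.21, against 8.53 and 7.89 in lean islets, with all 11 genes above 0 and a median difference of 1.21. All 5 delta and PP cell genes were below 0 there (8.60 and 8.70 on average in ob/ob islets, against 9.69 and 9.55), and the alpha-cell list averaged 7.85 and 7.97, against 8.70 and 8.57 in lean islets. The beta-cell list averaged 11.27 on both ob/ob arrays, against 11.50 and 11.55 in lean islets. Of its 12 genes 3 were above 0, and their median difference was -0.26. With the acinar and enterocyte covariates no gene at all was called, and Trpc4 and Cacna2d2 differed by 1.67 and -0.66, against 1.59 and -0.76 without them. The part of these cells in the differences was not tested.

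In 6-week ob/ob islets none of the 42 genes was called, on a background of 0%, and 5 had an unadjusted p below 0.05, against 6.15% of all genes. Cacna1f was at 4.11 and 3.67 in ob/ob islets, against 3.15 and 2.92 in lean 6J islets (0.86 ± 0.24, adjusted p = 0.791). Trpm5 was at 4.49 and 5.83 in ob/ob islets, against 6.31 and 6.54 in lean islets (-1.26 ± 0.39). Without ob/ob replicate 2 the difference in Trpm5 was -1.93. Trpc4 was at 6.84 and 5.67 in ob/ob islets, against 5.48 and 4.88 in lean islets (1.08 ± 0.39), and Scn3a at 8.97 and 7.99, against 7.84 and 7.45 in lean islets (0.83 ± 0.33). For these 3 genes ob/ob replicate 2 lay much closer to the lean arrays than replicate 1 did. Without replicate 1, Trpm5 differed by -0.60, Trpc4 by 0.49 and Scn3a by 0.34.

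Cacna2d4 was at 2.92 and 3.04 in 6-week ob/ob islets, against 3.65 and 3.82 in lean islets (-0.75 ± 0.24), and Trpc5 at 3.06 and 3.62, against 3.85 and 3.95 in lean islets (-0.56 ± 0.27). Trpc7 was at 3.81 and 4.82 in ob/ob islets, against 4.88 and 5.39 in lean islets (-0.82 ± 0.46). Leaving out 1 of the ob/ob arrays moved Trpc7 between -1.32 and -0.31 and Trpc5 between -0.84 and -0.27. Trpm4 was at 4.69 and 5.19 in ob/ob islets, against 4.92 and 6.64 in lean islets, where the higher lean value came from the array rich in enterocyte genes. Its difference was -0.84 with that array and 0.03 without it.

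**Figure D3:**
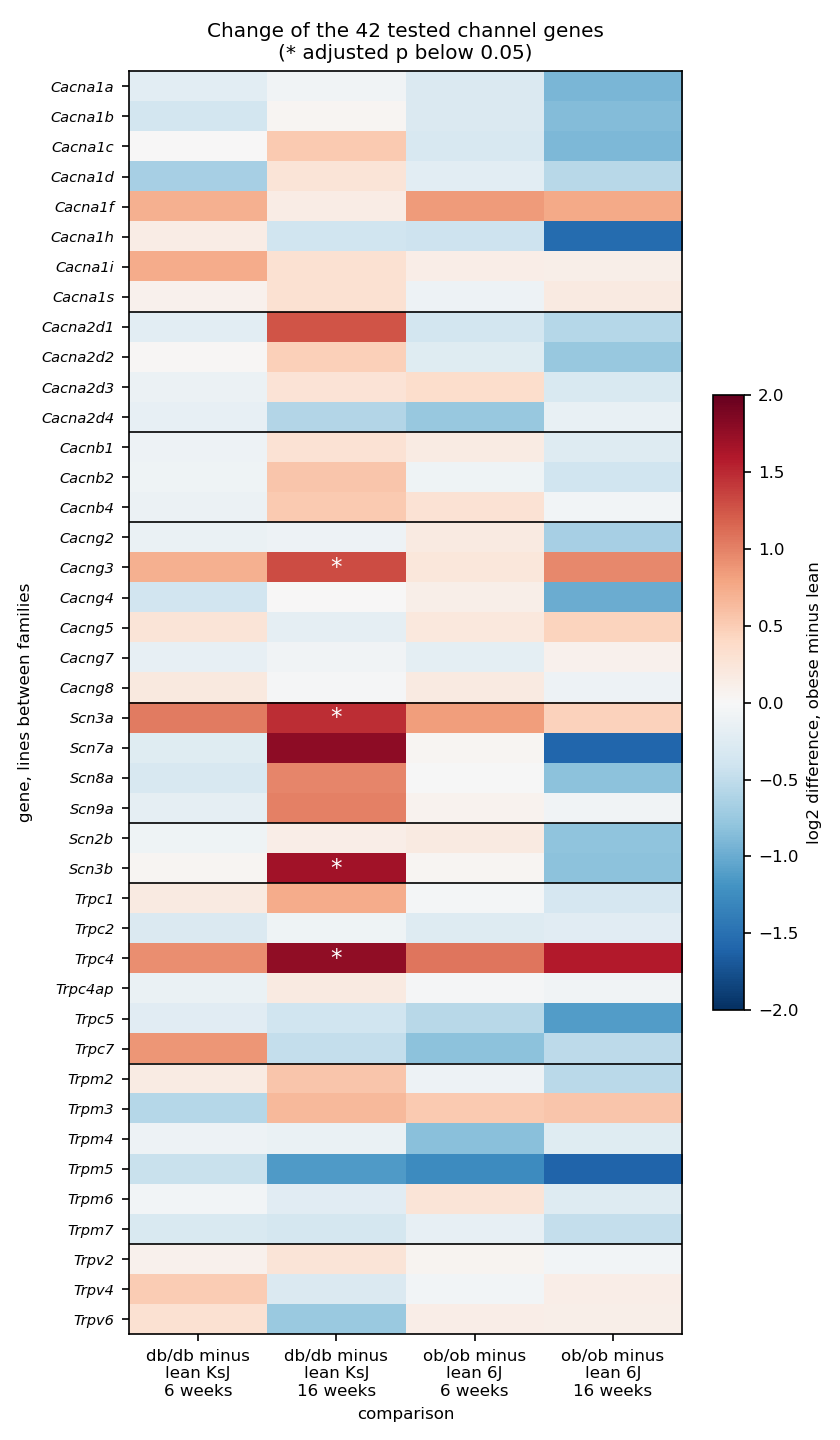
Log2 difference between obese and lean islets (colour, red for higher in obese islets) for the 42 tested channel genes (rows, with lines between the 9 families) in the 4 comparisons (columns, the earlier age left of the later one in each model). Asterisks mark the 4 calls, all in the 16-week db/db column, and Trpc4, Scn3a and Trpm5 keep 1 colour across the row.

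The db/db and ob/ob comparisons share no array, so their directions can be set side by side. At 16 weeks 7 genes had both obese arrays on the same side of both lean arrays in both models, namely Trpc4, Scn3a, Cacng3 and Trpm3 as higher and Trpm5, Trpm7 and Cacna2d4 as lower, on a background of 17.6% of all genes. In all 4 comparisons Trpc4 and Scn3a were higher, which is 2 of 42 genes against 3.31% of all genes, and Trpm5 and Trpm7 lower, 2 of 42 against 1.09% of all genes. With such small numbers these shares are a description. At 16 weeks 5 genes stood opposite in the 2 models, above lean islets in db/db and below them in ob/ob, on a background of 7.37% of all genes. These were Scn3b, Scn7a, Scn8a, Cacna2d1 and Cacna2d2.

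The test of the difference between the 2 obesity effects at 16 weeks called none of the 42 genes, on a background of 0.0129%, and 13 had an unadjusted p below 0.05, against 15.6% of all genes. Scn3b came closest, with an effect higher by 2.49 ± 0.33 in db/db than in ob/ob mice (adjusted p = 0.0526). Scn3b passed with the filter at the 50th percentile (0.144% of all genes called) and with a trend and robust variance model (0.058%). No gene at all passed without a filter, after quantile normalization or median centring, or with array weights. The same held for the Xist term, the acinar and enterocyte covariates and the compared groups alone. Cacna2d2 (1.23 ± 0.23, adjusted p = 0.121) and Scn7a (3.38 ± 0.71, adjusted p = 0.143) followed, then Scn8a (1.79 ± 0.53) and Cacna2d1 (1.82 ± 0.61). Without lean KsJ 16-week replicate 2 the difference was 3.02 for Scn7a, 1.0 for Scn8a and 0.91 for Cacna2d1. The mutation, the strain and the different control mice all enter this difference and cannot be told apart. At 6 weeks none was called, on a background of 0%, and 2 genes had an unadjusted p below 0.05, against 2.25% of all genes: Trpc7 (1.70 ± 0.65) and Trpm3 (-1.08 ± 0.45, or -0.70 without lean 6J 6-week replicate 2).

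**Figure D4:**
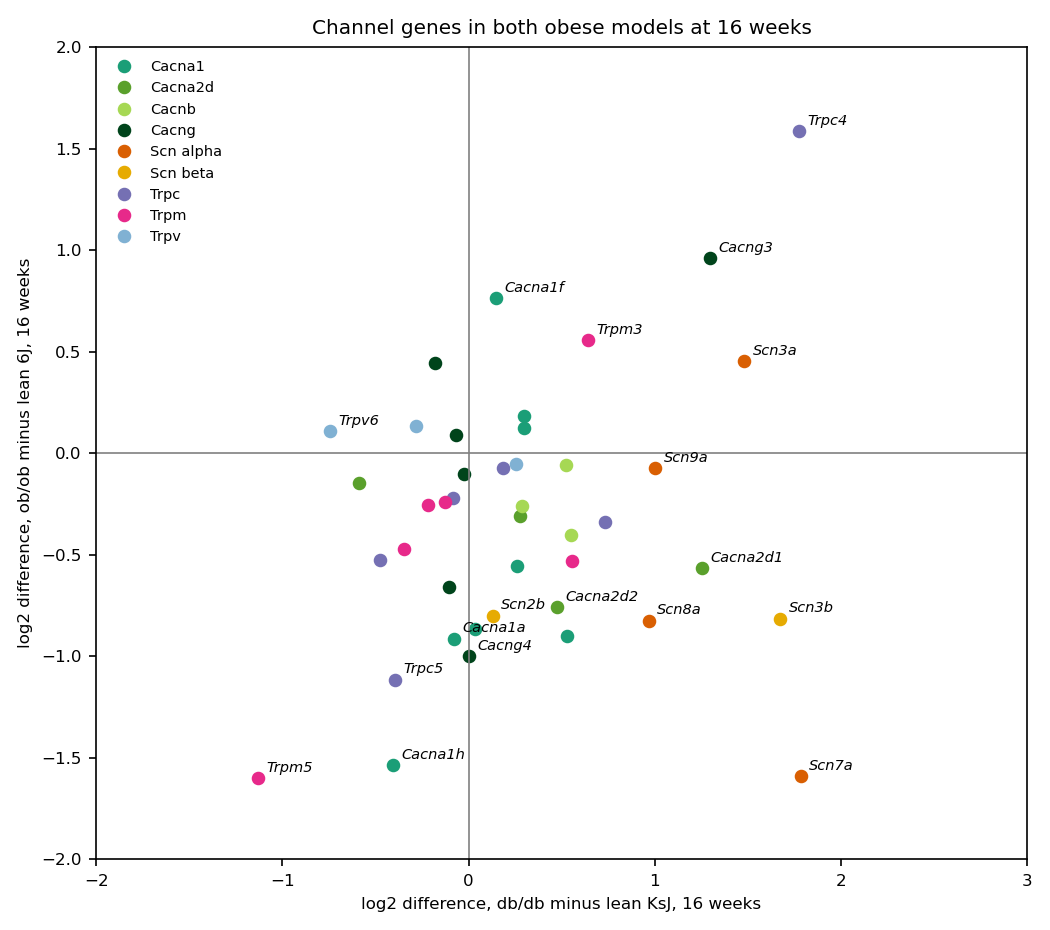
Log2 difference at 16 weeks between db/db and lean KsJ islets (horizontal axis) and between ob/ob and lean 6J islets (vertical axis) for the 42 tested channel genes, coloured by family. Trpc4, Cacng3, Scn3a and Trpm3 lie at the upper right and Trpm5 at the lower left, while Scn3b, Scn7a, Scn8a and Cacna2d1 lie at the lower right.

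Between 16 and 6 weeks none of the 42 genes was called in any group. In db/db islets the background was 0.0644%, and 4 genes had an unadjusted p below 0.05, against 7.61% of all genes. Scn3b was at 6.96 and 7.02 at 16 weeks, against 5.72 and 6.27 at 6 weeks (0.99 ± 0.23, adjusted p = 0.203). Trpc7 was at 5.45 and 4.80 at 16 weeks, against 7.01 and 6.76 at 6 weeks (-1.76 ± 0.46, adjusted p = 0.274), and Trpm5 at 3.49 and 4.43, against 5.03 and 5.05 at 6 weeks (-1.08 ± 0.39). In ob/ob islets the background was 0%, and 3 genes had an unadjusted p below 0.05, against 3.9% of all genes: Cacna1h (-0.88 ± 0.27), Scn7a (-1.52 ± 0.50) and Cacna1a (-0.50 ± 0.20). Uty was at 7.25 and 7.61 on the ob/ob arrays of 6 weeks, and at 2.21 and 2.33 on those of 16 weeks. Age and the Uty difference thus cannot be told apart in ob/ob islets.

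In lean KsJ islets none was called at 16 against 6 weeks, on a background of 0%, and 11 genes had an unadjusted p below 0.05, against 26.3% of all genes. Scn7a was at 3.54 and 2.83 at 16 weeks, against 5.05 and 5.47 at 6 weeks (-2.08 ± 0.50, adjusted p = 0.0853). Without lean KsJ 16-week replicate 1, which leaves the array rich in acinar genes, 16 of the 42 genes were called in this comparison, on a background of 35.3% of all genes. Without replicate 2, Scn7a differed by -1.72 and none of the 42 was called. In lean 6J islets none was called on a background of 0%, and 2 genes had an unadjusted p below 0.05, against 2.87% of all genes: Cacng4 (0.75 ± 0.25) and Cacna2d3 (0.76 ± 0.31). Lean 6J 6-week replicate 1 had a high Uty signal, and the lean 6J arrays of 16 weeks did not.

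Lean KsJ against lean 6J islets of 16 weeks gave 4 calls, all lower in KsJ islets, on a background of 4.12% of all genes. This comparison uses the same lean KsJ arrays as the db/db comparison. It was not matched for Uty, at 7.86 and 2.49 in KsJ islets, against 2.17 and 2.26 in 6J islets. Scn3b fell by 1.41 ± 0.23 (5.62 and 5.01 in KsJ islets, against 6.61 and 6.84 in 6J islets, adjusted p = 0.0158) and Cacna2d2 by 0.83 ± 0.16 (4.78 and 4.61, against 5.47 and 5.59, adjusted p = 0.0264). Cacng4 was at 6.09 and 5.44 in KsJ islets, against 6.71 and 6.88 in 6J islets (-1.03 ± 0.25, adjusted p = 0.0466). Cacna1a was at 7.28 and 6.88 in KsJ islets, against 7.92 and 7.86 in 6J islets (-0.81 ± 0.20, adjusted p = 0.0479). None of the 4 was called without lean KsJ replicate 2, where Scn3b differed by -1.10 (adjusted p = 0.0673), or with the acinar and enterocyte covariates. Without lean KsJ replicate 1, 23 of the 42 genes were called, on a background of 37.4% of all genes. At 6 weeks none of the 42 was called, on a background of 0.258%, and 3 had an unadjusted p below 0.05, against 6.65% of all genes: Trpm5 (-0.94 ± 0.39), Cacna1h (-0.64 ± 0.27) and Cacng4 (0.56 ± 0.25). Strain cannot be told apart from the codes in the sample titles, which follow it.

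The 16 dim genes had means at or below the filter, although 9 of them rose above it on at least 1 array. The highest values were those of Scn4b (4.59), Trpv5 (3.62) and Cacng1 (3.57), all 3 on lean KsJ 16-week replicate 2. Among them were Cacna1e, the R-type pore known in beta cells, at 2.27 to 3.19, and Cacna1g, a T-type pore, at 2.19 to 2.94. Trpv1, the capsaicin receptor, was at 2.10 to 2.78, and the neuronal sodium channel genes Scn1a, Scn2a, Scn10a and Scn11a had no value above 3.16. The others were Cacng1, Cacng6, Trpc6, Trpm1, Trpm8, Trpv3, Trpv5, Trpc5os and Scn4b, and 7 of the 16 had no array above the filter. Trpc6 and Trpv3 were just below the filter, with means of 2.81 and 2.79, and Trpm6 and Cacna1i just above it, each with a mean of 3.05. A dim signal is a bound on what these probes measured. Several channel genes are neighbours on a chromosome: Scn3a next to the dim Scn2a, and Scn9a between the dim Scn1a and Scn7a, all on chromosome 2, Cacng4 between Cacng1 and Cacng5 on chromosome 11, and Trpv6 next to Trpv5 on chromosome 6.

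The 5 lists of partner genes showed few calls, all of them higher in 16-week db/db islets among the 4 comparisons of obese and lean islets. The background was 5.32% of all genes called higher. Of 18 tested genes of calcium stores and store-operated entry, 3 rose and none fell: Casq2, a calcium buffer of the stores, by 1.21 ± 0.30, Stim1, the store calcium sensor, by 0.69 ± 0.18, and Saraf, a regulator of store-operated entry, by 1.11 ± 0.29. The median of that list was 0.31. Of 14 genes of sodium channel partners and the sodium pump, 3 rose: Fxyd6, a regulator of the sodium pump, by 1.05 ± 0.17, Nedd4l, a ubiquitin ligase that acts on sodium channels, by 0.94 ± 0.20, and Fgf12, an intracellular partner of sodium channels, by 1.35 ± 0.36. Their median was 0.16. Of 25 calcium sensors and channel partners, 1 rose, Cabp1, a calmodulin relative that binds calcium channels, by 0.94 ± 0.20, and the median was 0.24. The adjusted p of these partner calls ran from 0.0161 (Fxyd6) to 0.0497 (Fgf12), with Stim1 at 0.0473 and Saraf at 0.0492. They were made with both lean KsJ arrays of 16 weeks and are not given without replicate 2, the array rich in acinar genes. None of 19 genes of calcium export and mitochondrial uptake (median 0.23) and none of 18 other TRP-related and cation channel genes (median 0.08) was called. In the other 3 comparisons of obese and lean islets none of these genes was called, with list medians from -0.29 to 0.12. In lean KsJ against lean 6J islets of 16 weeks, which uses the same lean KsJ arrays, 3 of the 25 sensors and partners (Rem2, Cabp1 and Rims2), 3 of the 14 sodium channel partners (Fxyd6, Nedd4l and Fgf14) and 2 of the 18 other channel genes (Hcn4 and Scnn1b) were called lower in KsJ islets and none higher, on the background of 4.12% given above.

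The smaller table holds 1 array per group, so its differences have no replicate check. Scn3b was at 7.19 on the db/db array, against 5.57 on the lean KsJ array, and Scn3a at 6.92, against 5.34 on the lean array. Trpc4 was at 6.22 on the db/db array, against 4.92 on the lean array, and Cacng3 at 6.10, against 4.28 on the lean array. All 4 differences had the direction of the larger table, and that of Cacng3, 1.83, was the highest of the 42 genes. Trpm5 was the lowest, at 4.91 on the db/db array, against 6.23 on the lean array (-1.32). Scn8a was at 4.76 on the db/db array, against 3.70 on the lean array, and Cacna2d1 at 7.70, against 6.69. Of the 42 genes, 26 were above 0, against 56.6% of all genes, with a median of 0.12, against 0.09 over all genes. The lean array of this table was also rich in acinar genes (11.49 on the db/db array, against 12.59 on the lean array) and the db/db array in enterocyte genes (9.49 on the db/db array, against 4.45 on the lean array).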

How the data were processed

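Total RNA of isolated islets was labelled with biotin and hybridised to Affymetrix Mouse Gene ST arrays, per the labels. The values deposited by the authors are log2 signals of transcript clusters. Per the submitters' processing notes, MAS5, RMA and Partek were used, and their roles, order and versions are not given in the sources at hand. Of the 41034 clusters, the platform annotation gave 1 gene for 23521, several for 1814 and no row for 15699. Symbols were updated with the GRCm38.p6 gene table, and only clusters of 1 gene were used, the one with the highest mean for each gene. Genes at or below the 30th percentile of the mean (2.99) were left out. The 12 comparisons were contrasts of group means in a linear model of the 16 arrays (limma 3.58.1 with plain eBayes, run in R 4.3.3), with two-sided p-values adjusted by Benjamini-Hochberg over 15526 genes. The scripts were tested on simulated data. Promoter sequences are not reported here. The smaller table was described without a test, except in 1 alternative that joined the tables.

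Whether arrays of 1 group stand for separate mice or for pools is not stated in the labels. The p-values thus reflect only how far these samples spread, which may be technical, and 2 arrays per group limit the precision. Replicate numbers follow the accession order. The genes, the partner lists, the marker lists, the alternatives and the naming rule were chosen with earlier results of these data known. Named were each gene called in any comparison, the 8 with the smallest p in each comparison of obese and lean islets, and a fixed set of channel genes known in islets, and up to 3 called genes of each other list. Alternatives were quantile normalization, median centring, other filters, array weights, another variance model, averaging a gene's clusters, fitting only the compared groups, a term for Xist, acinar and enterocyte covariates, and leaving out arrays. Python 3.11.15 with matplotlib 3.10.9 drew the figures.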

Additional observations from a re-analysis of the deposited data

How the results depend on the processing

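Of the channel genes, 4 were called in 16-week db/db islets against lean KsJ islets. The count was 1 after quantile normalization, after median centring or without both arrays that stand apart, where the call that remained was Scn3b, and 1.17%, 1.12% and 0.985% of all genes were called. It was 0 with array weights or with the compared groups alone, where 0% and 0.0386% of all genes were called, 8 with the Xist term (10.1% of all genes), 7 with the acinar and enterocyte covariates (7.88%) and 10 with both tables joined (13.4%). Leaving out 1 array at a time gave 0 to 18, where the share of all genes was 0.277% to 30.2%. Median centring moved the median of all genes in that comparison to -0.02, against 0.18 as deposited. Lean KsJ against lean 6J islets of 16 weeks had 4.12% of all genes called with the values as deposited. The share was 2.61% without a filter, 0.792% after quantile normalization and 1.08% after median centring. It was 0.0129% with array weights, 0% with the compared groups alone and 0.0773% with the acinar and enterocyte covariates. In these fits the share of all genes fell along with the count of channel genes. The 4 calls in lean KsJ against lean 6J islets of 16 weeks became 2 without a filter, 1 after quantile normalization or median centring, 13 with the Xist term (16.5% of all genes), and 0 with array weights, the compared groups alone, the covariates or without both arrays that stand apart, with 0 to 23 when 1 array was left out (0.0902% to 37.4% of all genes). In 16-week ob/ob islets the count of 0 became 16 with array weights (19.1% of all genes), 12 with the compared groups alone (8.33%) and 3 without both arrays that stand apart (0.94%), with 0 to 7 when 1 array was left out. The difference between models at 16 weeks had 1 call with the filter at the 50th percentile and 1 with the trend and robust variance model, Scn3b both times, and 0 to 17 when 1 array was left out, the upper count without lean KsJ 16-week replicate 1, where 24% of all genes were called. In lean KsJ islets at 16 against 6 weeks and in 6-week ob/ob islets, some fits without 1 array made calls. The share of all genes called rose in the same fits. The other 6 comparisons had 0 calls under every alternative run. Of the named differences, that of Trpm4 in 6-week ob/ob islets turned, to 0.027, without both arrays that stand apart, and lay between -1.70 and 0.027 when 1 array was left out, the upper value without lean 6J 6-week replicate 2. The causes of these changes were not tested beyond fewer arrays or fewer genes in the fit. No paired analysis was possible because the labels give no replicate numbers. With 2 arrays per group, and signals near the floor for the dim genes, small differences were not detectable.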
